A study of Arabidopsis thaliana with 8 samples.

Results

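The genes described here are the 41 loci of Arabidopsis thaliana that encode nitrate and ammonium transporters, the enzymes of nitrogen assimilation, and 3 regulators of nitrogen use and carbon/nitrogen balance, out of 27444 protein-coding genes on the nuclear chromosomes. They were chosen by locus for their function, with earlier results of the same peaks known. For each gene, binding peaks of the GATA transcription factors GNC (NITRATE-INDUCIBLE, CARBON METABOLISM-INVOLVED) and CGA1 (CYTOKININ-RESPONSIVE GATA FACTOR 1) were sought from 2 kb upstream of the transcription start to 1 kb downstream of the gene end. The peaks came from chromatin immunoprecipitation followed by sequencing (ChIP-seq) of whole rosette leaves from 3-week-old Col-0 plants grown in long days. Plants of the myc-GNC line and plants of the myc-CGA1 line each overexpressed a myc-tagged factor, and every library came from one of these overexpression lines. Each line had 2 anti-myc IP libraries and 2 INPUT libraries of sonicated chromatin that was not immunoprecipitated, 8 libraries in all, and 1 peak list per replicate. The bound regions are therefore those of a tagged and overexpressed factor in leaves, and roots, where much of the nitrate is taken up, were not sampled.

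Plants take up nitrogen mostly as nitrate and ammonium through membrane transporters. Nitrate is reduced to nitrite by nitrate reductase and to ammonium by nitrite reductase, and the ammonium is fixed into glutamine and glutamate by glutamine synthetase and glutamate synthase, which lie at the junction of carbon and nitrogen metabolism. GNC was named for its induction by nitrate, and factors of its family bind DNA through a zinc finger that recognises GATA and related sequences such as GATC.

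The lists gave 5745 and 5722 peaks for GNC and 2456 and 2399 for CGA1, each with its interval and with a score. The score is the negative log10 of the peak caller's p-value for the IP library against its INPUT library, multiplied by 10, with a lowest value of 50. Depth is not known from the lists because they hold no read counts, and a score therefore has no error here. All 4734 overlapping pairs of GNC peaks had the same interval in both lists and 545 pairs also had the same score, whereas 891 of the 1919 overlapping pairs of CGA1 peaks had the same interval and 240 also the same score. The lists of a line were for this reason counted as 1 sample, no spread between replicates was used, and a gene was called only when both lists had a peak in its window. Of the 29 peaks found at nitrogen genes in both lists, 6 had an identical interval and score in the pair, and these are pointed out below.

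The DNA under several peaks is shown first, because these peaks are the ones on which the description of the nitrogen genes turns. Sequences are the reference sequence of RefSeq TAIR10.1 at the TAIR10 coordinates of the peak lists, written on the coding strand of the gene. Capitals mark GATA, or TATC where GATA lies on the other strand, and GATC. Unless another stretch is named, 121 bases around the peak centre are given, since the lists do not give summits. Windows of this length held GATA on either strand in 63.6% of all GNC peaks and 63.5% of all CGA1 peaks, and GATC in 33.0% and 33.9%. NIA1 had the most GNC peaks of the nitrogen genes, 3, and the sequence upstream of its transcription start (chr1:29239485-29239641, minus strand, positions −157 to −1) and the centre of its intron peak (chr1:29237625-29237745, minus strand) are given.
NIA1 upstream of the start, GNC: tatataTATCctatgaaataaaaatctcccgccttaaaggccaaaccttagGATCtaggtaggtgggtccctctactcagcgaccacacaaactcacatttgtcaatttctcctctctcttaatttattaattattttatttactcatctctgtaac
NIA1 intron, GNC: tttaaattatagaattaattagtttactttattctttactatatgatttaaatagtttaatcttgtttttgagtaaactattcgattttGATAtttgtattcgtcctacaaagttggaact
Further GNC peaks lay wholly upstream of a start, at NRT2.4 (chr5:24443721-24443841, plus strand), CNI1 (chr5:9683166-9683286, plus strand) and NRT1.8 (chr4:11520054-11520174, minus strand).
NRT2.4 upstream, GNC: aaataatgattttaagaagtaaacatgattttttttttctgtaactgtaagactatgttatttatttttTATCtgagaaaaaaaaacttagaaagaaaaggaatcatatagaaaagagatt
CNI1 upstream, GNC: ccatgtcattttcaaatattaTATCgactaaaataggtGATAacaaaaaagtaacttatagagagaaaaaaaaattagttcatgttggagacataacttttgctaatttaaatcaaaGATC
NRT1.8 upstream, GNC: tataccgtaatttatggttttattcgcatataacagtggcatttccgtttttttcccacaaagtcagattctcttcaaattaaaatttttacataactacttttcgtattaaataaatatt
The NRT2.7 peak (chr5:4696007-4696127, minus strand) is shown because it lay wholly in coding sequence.
NRT2.7 coding exon, GNC: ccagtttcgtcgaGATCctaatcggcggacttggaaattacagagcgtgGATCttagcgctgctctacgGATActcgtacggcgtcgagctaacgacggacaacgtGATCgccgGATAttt
ASN3 was the only nitrogen gene where GNC and CGA1 peaks overlapped, and the 2 shared stretches, in the gene (chr5:3213646-3213749, minus strand) and past its end (chr5:3212470-3212640, minus strand), are given whole.
ASN3 within the gene, GNC and CGA1: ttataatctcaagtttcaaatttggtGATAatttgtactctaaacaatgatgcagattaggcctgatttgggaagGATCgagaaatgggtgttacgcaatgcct
ASN3 past the gene end, GNC and CGA1: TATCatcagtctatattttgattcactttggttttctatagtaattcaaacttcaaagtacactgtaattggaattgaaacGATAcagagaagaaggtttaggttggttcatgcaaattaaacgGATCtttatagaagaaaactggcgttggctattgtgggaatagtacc
For CGA1, the centres of the peaks upstream of ASN1 (chr3:17442906-17443026, minus strand), where the score was highest, and in the coding exon of NIR1 (chr2:6810661-6810781, plus strand) are given.
ASN1 upstream, CGA1: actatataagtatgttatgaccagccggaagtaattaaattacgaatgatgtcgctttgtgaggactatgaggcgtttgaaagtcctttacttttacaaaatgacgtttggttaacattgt
NIR1 coding exon, CGA1: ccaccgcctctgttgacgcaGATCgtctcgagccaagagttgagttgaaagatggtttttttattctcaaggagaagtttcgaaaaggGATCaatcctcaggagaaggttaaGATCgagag
Both shared ASN3 stretches hold GATA and GATC, and the NRT2.7 and NIR1 centres each hold 3 copies of GATC. The centre of the NIA1 peak in coding sequence, which is not shown, also holds 3. NIR1 was the only CGA1 peak of the 10 at nitrogen genes with GATC in this window (10.0%), against 33.9% of all CGA1 peaks, while GATC was in 8 of the 19 GNC peaks (42.1%), against 33.0%. GATA was in 15 of the GNC peaks (78.9%), against 63.6%, and in 7 of the CGA1 peaks (70.0%), against 63.5%. Neither sequence lies in these 121 bases at the GNC peaks upstream of NRT1.8 and over the NIA1 start. The same holds for the CGA1 peaks upstream of ASN1 and NRT2.3.

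GNC peaks were found in both lists at 14 of the 41 nitrogen genes (34.1%), against 22.9% of all protein-coding genes. CGA1 peaks were found at 7 nitrogen genes (17.1%), against 9.94% of all protein-coding genes. Peaks of both factors were found at 4 nitrogen genes, NRT2.2, NIR1, ASN3 and GLN1;4 (9.76%), against 2.57% of all protein-coding genes, and a peak of either factor at 17 (41.5%), against 30.3%. The windows of the nitrogen genes had a median length of 5589 bp, against 5078 bp for all protein-coding genes, and among protein-coding genes with windows in the same range of lengths as the members' the shares were 25.5% for GNC and 11.0% for CGA1. With a score of at least 100 in both lists, GNC was left at ASN3 alone (2.44%), against 2.61% of all protein-coding genes, and CGA1 at ASN1 alone (2.44%), against 0.762%. Both factors were left at NRT2.2 and GLN1;4 (4.88%), against 1.07%, when each peak went only to the gene with the nearest start, and at NIR1 and GLN1;4 (4.88%), against 2.16%, when identical entries were left out. These shares are descriptions of a list chosen with earlier results of the same peaks known, and no test was made over its members. The counts differed between the steps of the pathway, and the map shows the peaks along the genes. All 3 genes of nitrate and nitrite reduction had a GNC peak in both lists, against 22.9% of all protein-coding genes. At NIA2 and NIR1 this peak lay past the gene end, and the NIA2 peak was an identical entry. None of the 6 ammonium transporter genes had a peak of either factor in both lists, against 30.3%. Steps of 3 and 6 genes are too small for either count to be read as a property of the step.

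**Figure D1:**
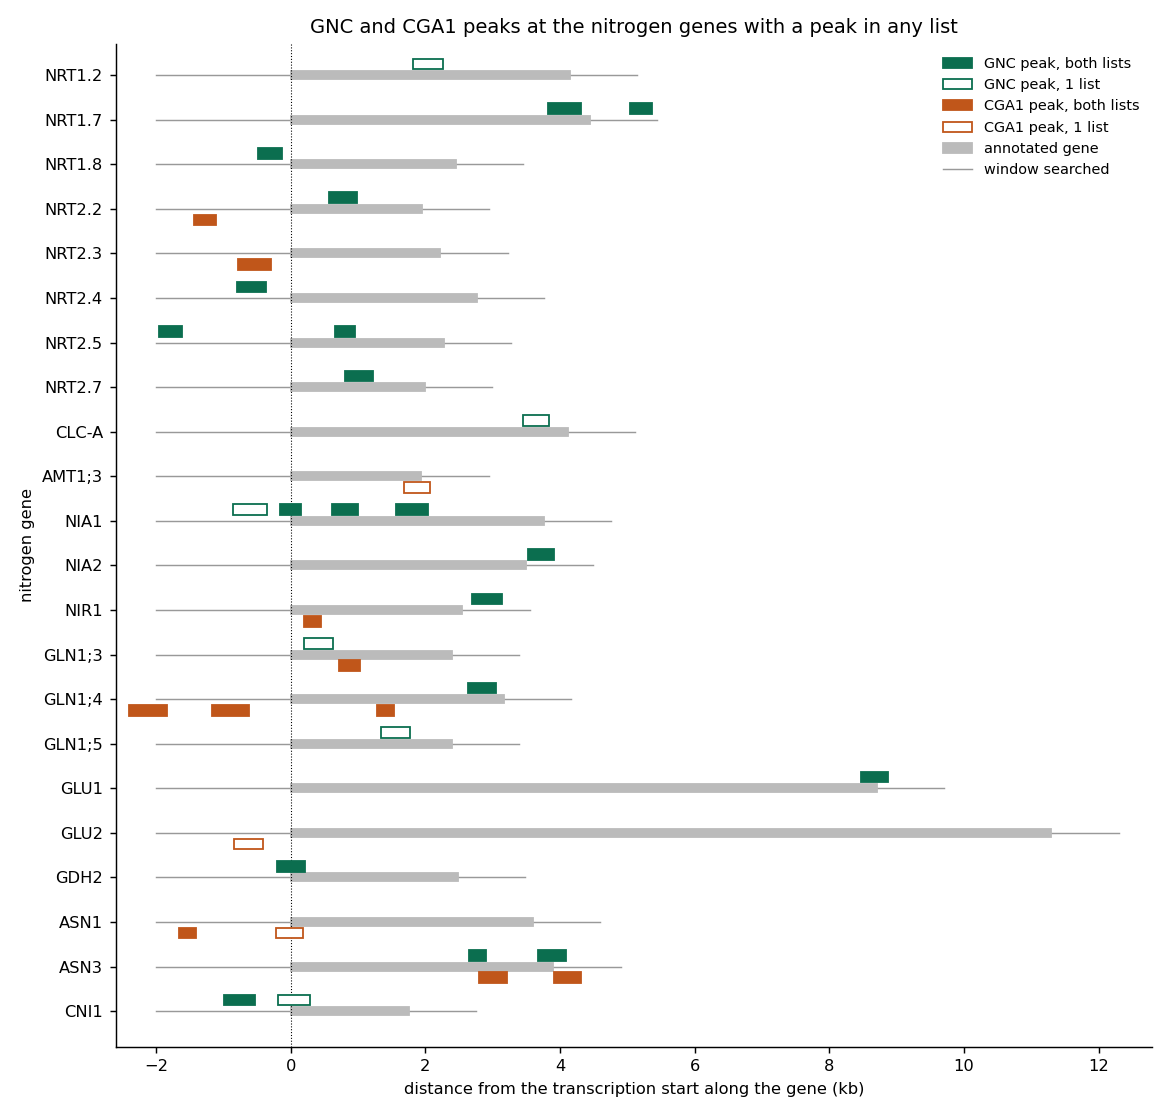
Peaks along the 22 nitrogen genes with a peak in any list. The x axis is the distance from the transcription start along the gene in kb, each row is a gene, grey bars are annotated genes and thin lines the windows searched, green boxes are GNC peaks and orange boxes CGA1 peaks, filled where both lists have the peak and open where 1 list has it. NIA1 has 3 filled GNC boxes, GLN1;4 has 3 filled CGA1 boxes, and boxes of both colours overlap only at ASN3. The CGA1 box of GLN1;4 that lies farthest upstream is centred outside the window and only touches it.

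By the narrower promoter rule, with a peak centre from 1 kb upstream to 100 bp downstream of the start, GNC was found at 5 nitrogen genes (12.2%), NIA1, NRT1.8, GDH2, CNI1 and NRT2.4, against 5.35% of all protein-coding genes. CGA1 was found by this rule at GLN1;4 and NRT2.3 (4.88%), against 2.25%. No nitrogen gene had both, against 0.138%, a share too low for this lack to be read as a property of the nitrogen genes. Several genes had more than 1 peak. At least 2 GNC peaks were found at NRT2.5, NRT1.7, NIA1 and ASN3 (9.76%), against 2.82% of all protein-coding genes, and at least 3 at NIA1 alone (2.44%), against 0.197%. At least 2 CGA1 peaks were found at ASN3 and GLN1;4 (4.88%), against 0.561%, and at least 3 at GLN1;4 alone (2.44%), against 0.0292%. The third CGA1 peak at GLN1;4 lay within the neighbouring gene BGLU2 and only touched the window. Its centre lay outside the window, 2124 bp upstream of the start in replicate 1 and 2104 bp in replicate 2. A GNC peak that overlapped a CGA1 peak in both lists was found at ASN3 (2.44%), against 0.492%. With 1 or 2 genes behind each of these last shares, a single gene more or less would change them by a large part of their value. At ASN3 both CGA1 peaks were identical entries and the GNC intervals were the same in both lists. The overlap in replicate 2 thus followed from that in replicate 1 and is not a repeat of it. With identical entries left out, ASN3 was no longer called for CGA1.

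**Figure D2:**
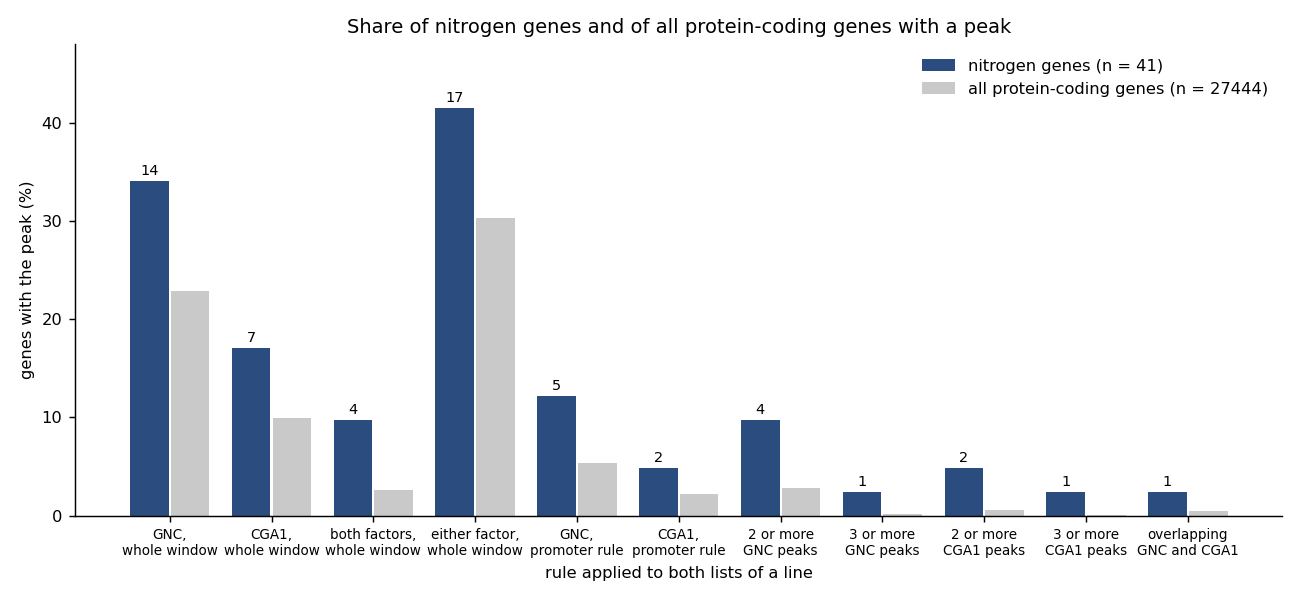
Share of genes with a peak in both lists under each rule. The y axis is the percent of genes, blue bars are the 41 nitrogen genes and grey bars the 27444 protein-coding genes, and the number over a blue bar is the count of nitrogen genes. The nitrogen genes' bar is the higher one under the 11 rules drawn, with 14 genes for GNC and 7 for CGA1 in the whole window. The order turns under some rules that are not drawn. It does so for GNC at a score of at least 100 (2.44% against 2.61%). For both factors together it turns at that score (0 against 0.0364%) and under the promoter rule (0 against 0.138%).

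The first step of assimilation held the gene with the most GNC peaks. NIA1 (AT1G77760) encodes a nitrate reductase, which reduces nitrate to nitrite in the cytosol. A GNC peak over its transcription start (chr1:29239339-29239641) had a score of 93.92 in replicate 1 and 114.58 in replicate 2, and its centre lay 6 bp upstream of the start. A second peak centred in an intron 1799 bp from the start (chr1:29237451-29237919) had scores of 91.42 and 118.32. The third, at 806 bp (chr1:29238491-29238865), lay wholly in coding sequence with scores of 62.94 and 74.12. The start and intron peaks were thus the higher ones in both lists, and the coding one was the lowest of the 3 in both. Replicate 2 also listed a peak centred 607 bp upstream, with a score of 86.17, which replicate 1 did not list. The stretch upstream of the start shown above holds 1 GATA, written as TATC, and 1 GATC, whereas the 121 bases around the centre of the start peak hold neither. The stretch also holds the 8-base sequence GTGGGNCC, a PCF-type element. On either strand within 250 bp of the centre, this element was found near 1 of the 19 GNC peaks at nitrogen genes (5.26%), against 1.38% of all GNC peaks.

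NIA2 (AT1G37130), the paralogue of NIA1, had a GNC peak (chr1:14161969-14162364) centred 228 bp past its end with a score of 55.81 in both lists, an identical entry. NIR1 (AT2G15620) encodes the nitrite reductase, which makes ammonium in the plastid, and it had a peak of each factor. Its GNC peak (chr2:6813092-6813534) lay 372 bp past the gene end with scores of 85.71 and 65.54, and the start of the neighbouring gene AT2G15630 was nearer to it than that of NIR1. Its CGA1 peak (chr2:6810593-6810850) lay wholly in coding sequence 326 bp from the start, with scores of 70.14 and 58.76. The peaks of the 2 factors lay 2241 bp apart at opposite ends of NIR1. No CGA1 peak was listed at NIA1 or NIA2.

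Among the NRT1 nitrate transporters of the NPF family, 2 of 5 genes had a GNC peak in both lists, against 22.9% of all protein-coding genes. None had a CGA1 peak in both lists, against 9.94%, and 5 genes are too few for this lack to be read as a property of the group. NRT1.8 (AT4G21680), which retrieves nitrate from the xylem sap, had a GNC peak (chr4:11519932-11520297) centred 309 bp upstream of its start, with a score of 59.5 and the same interval in both lists, and 46 bp of the peak overlapped a long non-coding RNA, AT4G07025. NRT1.7 (AT1G69870), which loads nitrate into the phloem of older leaves, had GNC peaks at the other end of the gene. The first (chr1:26319602-26320104) was centred in the last part of its coding sequence, 4066 bp from the start, with scores of 65.32 and 65.06. The second (chr1:26320833-26321156) lay 761 bp past the gene end with scores of 62.45 and 55.49. Both NRT1.7 peaks were nearer to the start of the thioredoxin gene TH8 (AT1G69880) than to that of NRT1.7, so their assignment to NRT1.7 rests on the window. NRT1.2 (AT1G69850), a low-affinity transporter, had a GNC peak in replicate 2 only, with a score of 56.47. NRT1.1, the dual-affinity transporter and nitrate sensor, and NRT1.5, which loads nitrate into the xylem, had no peak in any list.

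The high-affinity NRT2 transporters and their partner protein NRT3.1 had 5 of 8 genes called for either factor, against 30.3% of all protein-coding genes. GNC was at 4 of them, against 22.9%, and CGA1 at 2, against 9.94%. NRT2.4 (AT5G60770), which is induced in nitrogen-starved roots and shoots, had the highest-scoring GNC peak of these genes, 584 bp upstream of its start (chr5:24443563-24443999) with scores of 74.36 and 85.07. NRT2.3 (AT5G60780) lies next to NRT2.4 on the chromosome and had a CGA1 peak in a comparable place, 545 bp upstream of its start in replicate 1 and 547 bp in replicate 2 (chr5:24449954-24450447 and chr5:24449954-24450443), with scores of 51.32 and 51.65, close to the lowest score in the lists. The neighbours thus had 1 upstream peak each, of different factors. NRT2.5 (AT1G12940), which is expressed in long-starved plants, had a GNC peak 1785 bp upstream (chr1:4414358-4414703) with a score of 54.4 in both lists, an identical entry, and a second one centred in an intron 805 bp from the start (chr1:4416970-4417271) with scores of 67.24 and 61.85.

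NRT2.2 (AT1G08100) had a peak of each factor. The GNC peak (chr1:2528140-2528552) was centred in coding sequence 774 bp from the start, with a score of 53.87 in both lists, an identical entry. The CGA1 peak lay 1275 bp upstream in replicate 1 (chr1:2530237-2530554) with a score of 56.02, and 1273 bp upstream in replicate 2 (chr1:2530237-2530550) with a score of 60.67. The peaks of the 2 factors were separated by 1684 bp. NRT2.1, the main high-affinity uptake transporter and the neighbour of NRT2.2, had no peak in any list, and the nearest GNC peak in both lists was the one in NRT2.2, 818 bp outside its window. NRT2.7 (AT5G14570), which stores nitrate in seed vacuoles, had a GNC peak of 407 bp (chr5:4695864-4696270) that lay wholly in coding sequence, 1011 bp from the start, with scores of 55.47 and 66.64. NRT2.6 and NRT3.1 had no peak in any list. The vacuolar nitrate/proton exchanger gene CLC-A (AT5G40890) had a GNC peak in replicate 1 only, with a score of 53.88.

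Ammonium transporters bring ammonium into the cell, and 0 of their 6 genes had a peak of either factor in both lists. Of these genes, AMT1;1, AMT1;2, AMT1;4, AMT1;5 and AMT2;1 had no peak in any list. AMT1;3 (AT3G24300) had a CGA1 peak in replicate 2 only, over its 3′ end, with a score of 52.25. The nearest GNC peaks in both lists lay 716 bp outside the window of AMT1;1 and 696 bp outside that of AMT1;4. With 22.9% of all protein-coding genes called for GNC and 9.94% for CGA1, a group of 6 genes is too small for its lack of peaks to be read as a property of the group.

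Glutamine synthetase fixes ammonium into glutamine, in the cytosol through the GLN1 enzymes and in the plastid through GLN2. GLN1;4 (AT5G16570) was the nitrogen gene with the most CGA1 peaks. The highest-scoring of them was centred 893 bp upstream of the start in replicate 1 (chr5:5425367-5425918) and 891 bp in replicate 2 (chr5:5425367-5425914), with scores of 87.01 and 96.59, and its outer 278 bp and 274 bp overlapped the neighbouring gene BGLU2 (AT5G16580). A further peak lay wholly in an intron, 1406 bp from the start, with scores of 66.78 and 81.2. The third lay within BGLU2, with its centre 2124 bp and 2104 bp upstream of GLN1;4 and scores of 68.54 and 64.8, and only its inner part touched the window. Of the 3 CGA1 peaks counted for GLN1;4, 2 thus also lay in the window of BGLU2. GNC had 1 peak at GLN1;4, over the last coding bases and the 3′ UTR (chr5:5421707-5422110), with scores of 50.95 and 52.84, and it lay 1111 bp from the nearest CGA1 peak.

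GLN1;3 (AT3G17820) had a CGA1 peak (chr3:6097915-6098222) centred in an intron 867 bp from the start, with scores of 60.67 and 51.86. Replicate 2 of GNC listed a peak at this gene too, 418 bp from the start with a score of 58.06, which replicate 1 did not list. GLN1;5 (AT1G48470) likewise had a GNC peak in replicate 2 only, with a score of 50.91. GLN1;1, GLN1;2 and GLN2 had no peak in any list, and the nearest GNC peak to GLN2 lay 400 bp outside its window in both lists. Of the glutamate synthases, GLU1 (AT5G04140), the main ferredoxin-dependent enzyme of leaves, had a GNC peak over its 3′ UTR and the bases past it (chr5:1138262-1138650), centred 32 bp before the gene end, with scores of 72.09 and 53.11. The start of the neighbouring gene BHLH101 (AT5G04150) was nearer to that peak than the start of GLU1, and 241 bp of the peak overlapped BHLH101, which encodes a transcription factor of iron deficiency responses. GLU2 (AT2G41220) had a CGA1 peak in replicate 1 only, with a score of 55.59, 169 bp of it over the neighbouring gene PIP5K5, and GLT1, the NADH-dependent enzyme, had none.

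Glutamate dehydrogenase chiefly releases ammonium from glutamate when carbon is short. GDH2 (AT5G07440) had a GNC peak (chr5:2355551-2355966) centred 1 bp upstream of its start, with scores of 60.03 and 55.7. GDH2 and NIA1 were thus the nitrogen genes with a GNC peak in both lists over the transcription start itself. GDH1 and GDH3 had no peak in any list.

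Asparagine synthetase makes asparagine, a form in which nitrogen is stored and transported. ASN1 (AT3G47340), which is induced in the dark and under sugar starvation, had the highest-scoring CGA1 peak of the nitrogen genes, 1535 bp upstream of its start in replicate 1 (chr3:17442847-17443086) and 1537 bp in replicate 2 (chr3:17442851-17443086), with scores of 111.47 and 106.11. It was the only CGA1 peak at a nitrogen gene with a score of at least 100 in both lists. Replicate 1 also listed a CGA1 peak over the start of ASN1, with a score of 51.13. ASN1 had no GNC peak.

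ASN3 (AT5G10240) had the highest-scoring GNC peak of the nitrogen genes. It was centred in an intron 2775 bp from the start (chr5:3213646-3213906) and had scores of 123.86 and 137.64, above 96.2% and 97.7% of the peaks in the lists. A CGA1 peak (chr5:3213333-3213749) with a score of 58.21 in both lists overlapped it by 104 bp. A second pair lay at the gene end, where a GNC peak (chr5:3212470-3212871) with scores of 51.08 and 62.66 and a CGA1 peak (chr5:3212240-3212640) with a score of 59.83 in both lists overlapped by 171 bp. Both CGA1 peaks at ASN3 were identical entries in the lists, and 73 bp of the one at the gene end overlapped a tRNA gene, AT5G10235. All of these peaks were nearer to the start of the neighbouring annexin gene ANNAT7 (AT5G10230) than to that of ASN3, so their assignment to ASN3 rests on the window. Scores of the 2 factors come from different libraries, whose depth the lists do not give, and are not compared here. ASN2 had no peak in any list.

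Among the regulators, CNI1 (AT5G27420), a ubiquitin ligase also named ATL31 that acts in carbon/nitrogen balance, had a GNC peak (chr5:9683000-9683453) centred 762 bp upstream of its start, with scores of 74.21 and 62.61. Replicate 1 also listed a GNC peak over the start, with a score of 50.44. A CGA1 peak lay 199 bp outside the window of CNI1 in replicate 1 and 203 bp in replicate 2 and was not counted. NLP7, a master regulator of the nitrate response, and ATL6, the paralogue of CNI1, had no peak in any list, and the nearest GNC peaks lay 11227 bp and 13564 bp outside their windows.

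**Figure D3:**
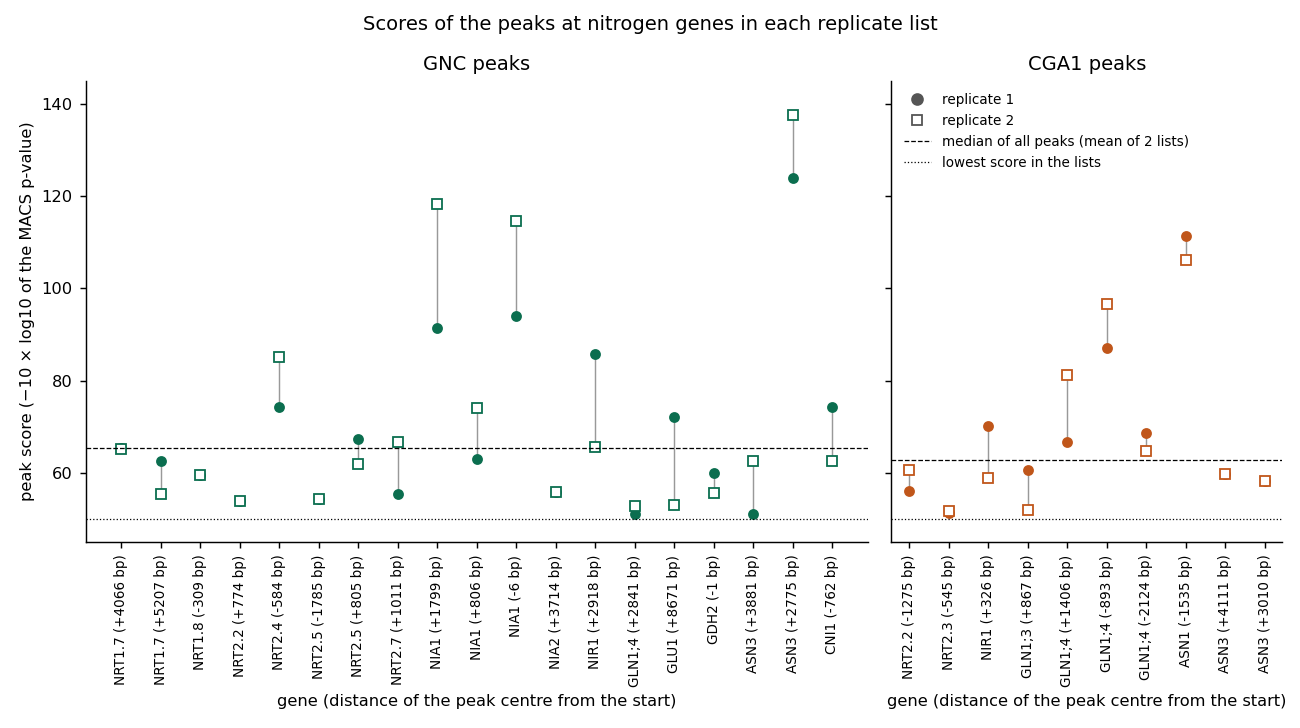
Scores of the 19 GNC peaks and 10 CGA1 peaks found at nitrogen genes in both lists. The y axis is the peak score, filled circles are replicate 1 and open squares replicate 2, grey lines join the 2 lists, the dashed line is the median of all peaks of the line (mean of the 2 lists) and the dotted line the lowest score of 50. ASN3 (+2775 bp) is highest for GNC and ASN1 (−1535 bp) for CGA1, and where only a square is seen the scores are identical or nearly so.

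By score, the median peak at a nitrogen gene lay below the median peak at all protein-coding genes in every list. The 19 GNC peaks had a median score of 62.9 in replicate 1 and 62.6 in replicate 2, against 69.8 and 69.2 for the peaks at all protein-coding genes. The 10 CGA1 peaks had median scores of 63.7 and 60.3, against 66.6 and 65.5. The plot of scores by list shows the highest ones, ASN3 and the start and intron peaks of NIA1 for GNC and ASN1 and the upstream peak of GLN1;4 for CGA1. By position, 31.6% of the GNC peaks at nitrogen genes were centred upstream of the gene, 52.6% in the gene body and 15.8% downstream, against 38.9%, 40.0% and 21.1% at all protein-coding genes. For CGA1 these shares were 50%, 40.0% and 10.0%, against 40.3%, 39.1% and 20.6% in replicate 1.

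Some of these peaks could be assigned to other genes. Of the 19 GNC peaks, 7 also lay in the window of another protein-coding gene, and of the 10 CGA1 peaks 4 did, those at NRT1.7, NRT2.7, NIR1, GLU1, ASN3, CNI1 and GLN1;4. Reads that matched more than 1 location had been removed before peak calling, which bears on paralogues with near-identical sequence. In the windows of the nitrogen genes a median of 99.6% of the 32-base words occurred once in the genome (range 90.2% to 100%), against a median of 99.7% for all protein-coding genes. The bodies of NRT2.2 and NRT2.1 were the less unique ones, with 84.6% and 87.0%, and the part of this in the peaks found there was not tested.

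GATA, counted on either strand within 250 bp of the peak centre, was found in all 19 GNC peaks and all 10 CGA1 peaks at nitrogen genes, against 98.3% and 98.5% of all peaks, so at this width nearly any peak holds it. Within 100 bp of the centre it was found in 19 of 19 GNC peaks, against 81.7% of all GNC peaks, and in 8 of 10 CGA1 peaks, against 81.7% of all CGA1 peaks. GATC was found within 250 bp in 17 GNC peaks (89.5%), against 80.0% of all, and in 9 CGA1 peaks (90.0%), against 79.2%. Within 100 bp it was found in 57.9% of the GNC peaks, against 49.0%, and in 40.0% of the CGA1 peaks, against 48.6%, so for CGA1 the order of the shares turned with the width of the window. The E-box CANNTG was found in 13 GNC peaks (68.4%), against 84.6%, and in 8 CGA1 peaks (80.0%), against 84.1%. The G-box CACGTG, a special case of CANNTG, was found in 1 GNC peak (5.26%), against 6.75%, and in 0 CGA1 peaks, against 6.35%. GAGAGA was found in 7 GNC peaks (36.8%), against 38.7%, and in 2 CGA1 peaks (20.0%), against 41.2%. Within 100 bp GAGAGA was in 36.8% of the GNC peaks, against 18.3%, and in 10.0% of the CGA1 peaks, against 20.4%. For GNC the order of the GAGAGA shares thus turned with the width. In the 121 bases around the centre, CANNTG was in 31.6% of the GNC peaks, against 37.2%, and in 0 of 10 CGA1 peaks, against 35.0%. These matches describe the sequence under the peaks and do not mark the bound bases.

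Other nitrogen genes, listed by function with earlier results of these data known, were counted in the same way. Of 24 nitrate signalling genes outside the 41, 6 (25.0%) had a GNC peak in both lists and 5 (20.8%) a CGA1 peak, against 22.9% and 9.94% of all protein-coding genes, so the GNC share lay near the background. ANR1, a MADS-box gene of the root response to nitrate, had the highest GNC score among them, 740 bp upstream of its start with 75.97 and 99.16. NLP6 had GNC scores of 66.4 and 55.83, TGA4 of 64.17 and 59.12, NLP4 of 61.92 and 54.49, and NLP3 of 60.53 and 51.11. NLP6, NLP4 and NLP3 belong with NLP7 to the family of nitrate-responsive regulators. For CGA1, NLP9 had scores of 104.65 and 87.32, with the peak 2175 bp from the start. TCP20, a transcription factor gene of the TCP family, had 81.54 and 53.5. The calcium-dependent protein kinase gene CPK32 had 64.69 and 56.17, HRS1, which encodes a repressor of nitrate and phosphate responses, had 52.99 and 64.51 from different peaks in the 2 lists, and NLP5 had 62.71 and 52.36. None of the 24 genes had both factors in both lists, against 2.57% of all protein-coding genes. A list of 24 genes is too small for this lack to be read as a property of the list.

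Of 15 genes of amino-group metabolism, 4 (26.7%) had a GNC peak, near the 22.9% of all protein-coding genes, and 3 (20.0%) a CGA1 peak, against 9.94%. Aspartate aminotransferases, encoded by the ASP genes, move amino groups between glutamate and aspartate. ASP2 had GNC scores of 112.06 and 130.71 for a peak whose centre lay 2178 bp upstream of the start and which only touched the window, ASP1 had 99.59 and 80.79, and ASP5 had 68.43 and 66.3, whereas ASP3 had a CGA1 peak with 60.06 in both lists. The urea transporter gene DUR3 had GNC scores of 58.41 and 59.04. ASPGB1, which encodes an asparaginase, had CGA1 scores of 77.01 and 64.42, and CARB, which encodes a subunit of carbamoyl phosphate synthetase, had 51.25 and 73.93. The molybdenum cofactor of nitrate reductase is made by the CNX enzymes. The list of cofactor genes held CNX genes and also ABA3, which is not one of them. Of its 6 genes, 3 (50%) had a GNC peak and 0 a CGA1 peak, against 22.9% and 9.94%. ABA3 had 77.97 and 92.44, CNX2 had 65.53 and 57.94, and CNX3 had 54.2 and 51.05 from different peaks. With 6 genes, each one is a large part of such a share.

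CNI1 belongs to the ATL family of ubiquitin ligases, of which 11 further genes were matched by an annotated name of ATL and a number. Of these 11, 6 (54.5%) had a GNC peak and 0 a CGA1 peak, against 22.9% and 9.94% of all protein-coding genes. Each of the 11 genes is a large part of such a share, and the share is not that of the whole family. The highest GNC scores were those of ATL9, with 81.11 and 83.39 at 2096 bp from the start, followed by ATL4 with 57.4 and 67.2 at 171 bp upstream. ATL5 (AT3G62690) had 59.0 and 61.62, ATL2 had 57.48 and 60.28, and ATL3 had 56.4 and 54.64. Of 22 further NPF transporter genes, likewise matched by annotated name, 4 (18.2%) had a GNC peak and 3 (13.6%) a CGA1 peak. These shares lay on either side of the background of 22.9% and 9.94%. GTR1, a glucosinolate transporter, had GNC scores of 87.05 and 68.28, NAXT1 had 68.28 in both lists, AT3G25260 had 76.94 and 58.04, and NRT1.9 had 61.35 and 57.66 with the peak 346 bp upstream of its start. For CGA1, PTR4 had 63.31 and 73.8, PTR6 had 64.82 in both lists and AT1G27040 had 50.6 and 65.15.

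**Figure D4:**
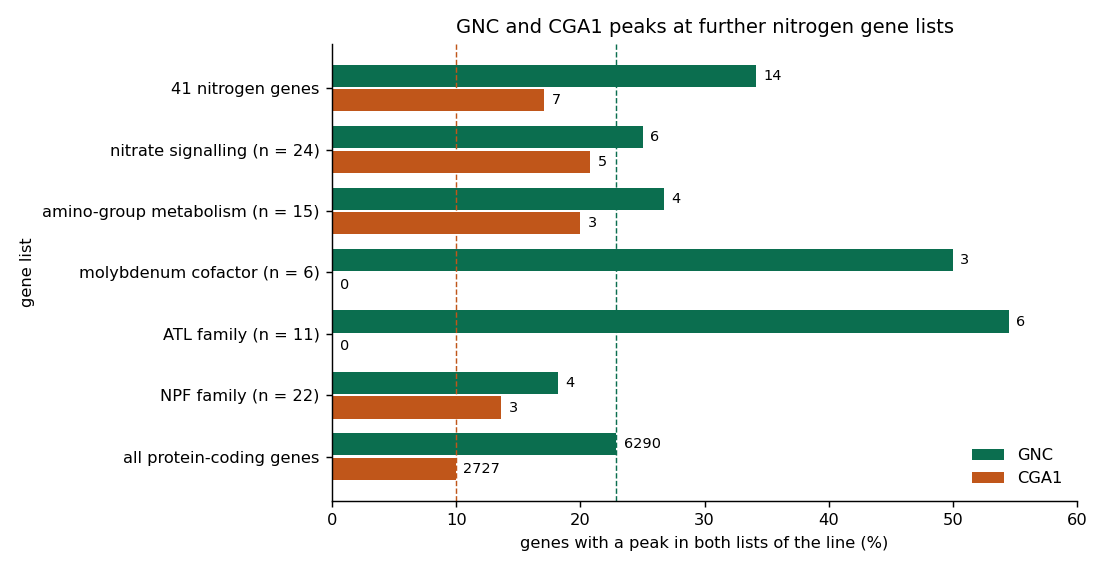
Share of genes with a peak in both lists of a line, for the 41 nitrogen genes, 5 further nitrogen gene lists and all protein-coding genes. The x axis is the percent of genes, green bars are GNC and orange bars CGA1, the number beside a bar is its count of genes and the dashed lines mark all protein-coding genes. The molybdenum cofactor and ATL lists have 3 and 6 genes with GNC and 0 with CGA1, and the NPF list lies below the line for GNC.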

How the data were processed

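The 41 genes and the gene lists were chosen with earlier results of these data known. According to the methods and the submitters' processing notes, trimmed reads were aligned to TAIR10 by the authors (Bowtie2 version 2.2.6), reads with more than 1 location were discarded, and MACS was run on each replicate with the IP library set against its INPUT library. Each peak has a deposited score, which is the negative log10 of the p-value multiplied by 10 and was used as it stood. The lists hold no counts, so depth and precision are not known from them. Samples were grouped by their titles. Where a description disagreed with the title, as for the CGA1 INPUT samples, whose descriptions give the GNC lists, the title was taken.

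Starts were converted to positions counted from 1. Peaks were joined to genes of the RefSeq TAIR10.1 annotation on the 5 nuclear chromosomes, whose coordinates are those of TAIR10, where at least 1 bp of the peak lay in the window from 2000 bp upstream to 1000 bp downstream of the gene. Locations are those of the peak centre. A gene was called when both lists of the line had a peak in the window, and peaks were counted as the same in both lists when they overlapped. Genes were not tested, and each count is set beside the same count over all protein-coding genes. Every member is accounted for, each member called is described with its values in both lists, and of each further list up to 5 genes per line with the highest mean score are named. In the further lists, NRG2, HHO1, HHO2, HHO3 and CNX6 matched no symbol in the annotation, a ribosomal protein gene that shares the symbol ATL5 was left out after its values were seen, and genes were counted with a peak in each list, not always the same one. The ATL and NPF lists hold only genes whose symbol or synonym in the annotation gives the family name. Motifs were counted on both strands within 250 bp on each side of the centre of all peaks of replicate 1 and of the peaks at nitrogen genes found in both lists. Uniqueness is the share of 32-base words that occur once in the genome on either strand. The overlap step was tested on simulated peaks. The analysis used Python 3.11.15 with numpy 2.4.6 and pandas 2.3.3, and matplotlib 3.10.9 for figures.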

Additional observations from a re-analysis of the deposited data

How the results depend on the processing

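With a score of at least 100 in both lists, 1 gene was left for GNC (ASN3), since both NIA1 peaks above that score reached it in replicate 2 only, 1 for CGA1 (ASN1), 0 for both factors and 2 for either factor, against 2.61%, 0.762%, 0.0364% and 3.34% of all protein-coding genes. The promoter rule left 5, 2, 0 and 7 genes, against 5.35%, 2.25%, 0.138% and 7.46%. When each peak went only to the gene with the nearest start, 2 genes had both factors, against 1.07%, and GNC was left at 10 (24.4%), against 13.8%, and CGA1 at 6 (14.6%), against 5.86%. When peaks with the same interval and score in both lists were left out, an alternative chosen after seeing the data, 2 genes had both factors (NIR1 and GLN1;4), against 2.16%, and GNC was left at 11 (26.8%), against 21.0%. Without replicate 1, the counts were 17 for GNC, 8 for CGA1, 5 for both factors and 20 for either factor. The shares of all protein-coding genes were then 26.9%, 12.3%, 3.68% and 35.5%. Without replicate 2, the counts were 15, 8, 4 and 19, against 27%, 12.7%, 3.9% and 35.7%. The counts stayed within 1.5 times under the other alternatives, which were the peak centre or 50 percent of the peak in the window, a window from 1 kb upstream to 500 bp downstream, a peak in either list, and 2 other backgrounds. Within 100 bp of the centre, GATC was found in 57.9% of the GNC peaks at nitrogen genes, against 49.0% of all GNC peaks, and in 40.0% of the CGA1 peaks, against 48.6%, and CACGTG in 0 of the GNC peaks, against 2.92%. In the whole peak, GATC was in 60.0% of the CGA1 peaks at nitrogen genes, against 72.5% of all. No paired analysis was possible because these results come from counts without a test. Weak peaks are limited by a depth that the lists do not give.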
